A study of Rattus norvegicus with 7 samples.

Results

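Striated muscle transcripts were examined in meibomian gland dissected from the rat eyelid. The set comprised 42 genes of the contractile apparatus of skeletal muscle and its calcium handling, energy supply, remodelling and myogenic regulators. The genes were taken by symbol. Values were present for 36 of the 42, out of 17245 genes with values in all libraries. Myh1, Myh2, Myh8, Ttn, Tcap and Atp2a1 were not analysed here. Of the 36, 35 had enough counts to be tested, and Pax7 did not.

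The study compared wild-type female Sprague-Dawley rats aged 3 months that were not treated (control, n = 4 libraries) with rats of the same strain, sex and age given ultraviolet B light (UVB, n = 3 libraries). Per the labels, UVB was delivered to the shaved upper eyelids at 300 mJ/cm2, in a 5 min session per day on 5 days, and the glands were dissected from the removed lids and snap frozen. The labels repeat this protocol for every sample, so whether controls were shaved is unclear, and the interval between the last session and dissection is not given. The labels do not say that each library came from a separate animal, so p-values measure the spread between these samples, which may be technical. The libraries held 20680237 to 28784941 counts and are denoted by letters within their group, in the order of the columns, which pairs no control with any UVB library. Defining transcripts of the gland were abundant in both groups, with Scd, the lipid desaturase, at a mean of 27692 TPM in controls and 27033 TPM after UVB (TPM is a transcript abundance corrected for length). The 8 gland markers listed, Scd among them, summed to 47242 ± 3781 TPM in controls (SD, n = 4) and 41422 ± 3631 TPM after UVB (SD, n = 3).

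The meibomian glands lie in the tarsal plate of the lid, beside the striated fibres of the orbicularis oculi, the muscle that closes the eye. Striated fibres shorten when myosin heavy chains pull on actin filaments anchored at the Z-disc, after calcium released from the sarcoplasmic reticulum has bound troponin. Fast and slow fibres use different isoforms of myosin, troponin, myosin light chain and myosin-binding protein C, and developing or regenerating fibres use further myosins. Blinking muscle is known as a predominantly fast muscle.

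Across the 35 tested genes, Actn2, Des and Myog were higher after UVB and Actn3, Casq1 and Igfn1 were lower, while the most abundant contractile transcripts, Acta1, Tpm2 and Mylpf among them, did not pass the test. A gene was called when its adjusted p was under 0.05 in edgeR's quasi-likelihood test, adjusted by Benjamini-Hochberg over 13709 genes. The 6 called genes made up 17.1% of the 35, beside 13.0% of all genes tested. All genes gave 6.30% higher and 6.74% lower. The same 6 genes were the members whose control and UVB libraries did not overlap, again 17.1%, while groups did not overlap for 26.6% of all genes. The median log2 fold change of the 35 (UVB minus control) was -0.20, with 12 above and 23 below 0, beside a median of -0.01 over all genes. Without UVB c the median was 0.01, so the sign of the median rests on that library. In bulk tissue, fewer muscle fibres and less RNA per fibre cannot be told apart.

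The RefSeq sequence just upstream of the 6 called genes is shown here because muscle genes are commonly controlled through E-boxes. These are CANNTG sites, a class that includes the sites bound by Myod1, Myog and their relatives. Each run gives the 150 bases before the start in the gene's RefSeq promoter entry in assembly GRCr8. It is written 5′ to 3′ on the gene's strand, with every E-box in capitals. Over all promoter entries, 57.8% of starts matched the gene start in the RefSeq gene annotation. Whether the starts of these 6 genes matched was not recorded. The first 3 genes were higher after UVB and the last 3 lower.
Actn2: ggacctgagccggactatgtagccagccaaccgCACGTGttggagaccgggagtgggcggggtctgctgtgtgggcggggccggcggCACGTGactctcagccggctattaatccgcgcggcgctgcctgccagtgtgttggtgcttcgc
Des: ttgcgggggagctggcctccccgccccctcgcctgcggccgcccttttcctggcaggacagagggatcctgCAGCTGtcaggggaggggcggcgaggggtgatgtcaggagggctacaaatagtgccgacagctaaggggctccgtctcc
Myog: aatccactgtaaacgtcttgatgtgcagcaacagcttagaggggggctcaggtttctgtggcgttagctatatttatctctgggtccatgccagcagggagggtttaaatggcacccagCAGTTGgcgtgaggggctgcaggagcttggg
Actn3: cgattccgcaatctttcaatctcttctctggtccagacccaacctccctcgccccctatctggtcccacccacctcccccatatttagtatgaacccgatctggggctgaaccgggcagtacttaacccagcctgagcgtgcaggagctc
Casq1: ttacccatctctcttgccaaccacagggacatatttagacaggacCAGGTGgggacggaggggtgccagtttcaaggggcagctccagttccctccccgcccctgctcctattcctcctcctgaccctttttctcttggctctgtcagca
Igfn1: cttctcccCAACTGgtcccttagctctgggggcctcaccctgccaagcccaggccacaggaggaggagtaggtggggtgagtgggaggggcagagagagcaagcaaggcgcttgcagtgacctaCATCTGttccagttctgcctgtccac

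These windows lie at chr17:62834905-62835054 (plus strand) for Actn2, chr9:84299476-84299625 (plus strand) for Des and chr13:48297326-48297475 (plus strand) for Myog. They lie at chr1:211604402-211604551 (minus strand) for Actn3, chr13:87212711-87212860 (minus strand) for Casq1 and chr13:49979204-49979353 (minus strand) for Igfn1. CANNTG reads the same on both strands, so each match counts for both. It was found in 5 of the 6 windows, with 2 matches each for Actn2 and Igfn1, 1 each for Des, Myog and Casq1, and 0 for Actn3. Such a match was held by 46.6% of the 33469 RefSeq windows of this length, and 14.6% held at least 2. The nearest E-box ended 26 bases before the start of Myog, 21 before that of Igfn1, 58 before that of Actn2, 74 before that of Des and 100 before that of Casq1. The MEF2 consensus was searched on both strands as YTAWWWWTAR, where Y is C or T, W is A or T and R is A or G. It had no exact match in the 6 windows and was held by 1.67% of all windows. Stretches 1 base off it were not counted, such as ctatatttat in the Myog window, so a MEF2 site may still be present. Both matches of Actn2 read CACGTG. A match describes the letters only and does not say which factor binds. Promoter entries were found for 30 of the 36 genes with values.

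Muscle RNA was a small and uneven part of the gland libraries. The 36 genes summed to 4227, 4187, 5949 and 5515 TPM in control a to d (4970 ± 899, SD, n = 4) and to 5356, 4527 and 3070 TPM in UVB a to c (4317 ± 1157, SD, n = 3). The ranges overlapped, with UVB c lowest of all and control c highest. The median coefficient of variation between libraries of a group was 20.8% in controls and 31.8% after UVB for the 35 tested genes, against 9.32% and 9.85% for all genes. UVB c was the lowest of the 7 libraries for 23 of the 35 genes and the lowest UVB library for 30, or 85.7%. Within controls, c was highest for 18 genes and d for 15, while b was lowest for 18 and a for 14. Markers of other cell types were also in the glands. Of markers tested, 3 of 5 fibroblast, 1 of 6 adipocyte and 1 of 5 macrophage ones were called higher after UVB. So were 1 of 4 endothelial and 1 of 5 keratinocyte markers. None of these lists held a marker called lower, and 2 of 8 gland markers were called lower. Of all genes tested, 6.30% were called higher and 6.74% lower. Log2 fold changes lay below 0 for 4 of 6 adipocyte, 2 of 5 macrophage and 2 of 5 keratinocyte markers. For fibroblast and endothelial markers this held for 1 of 5 and 1 of 4. Of 6 Schwann cell and nerve markers reported, 1 was lower and all 6 had log2 fold changes below 0, with a median of -0.57. The part of these cells in the muscle results was not tested. The ranks show that muscle genes varied together by library, and values are given below library by library.

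**Figure D1:**
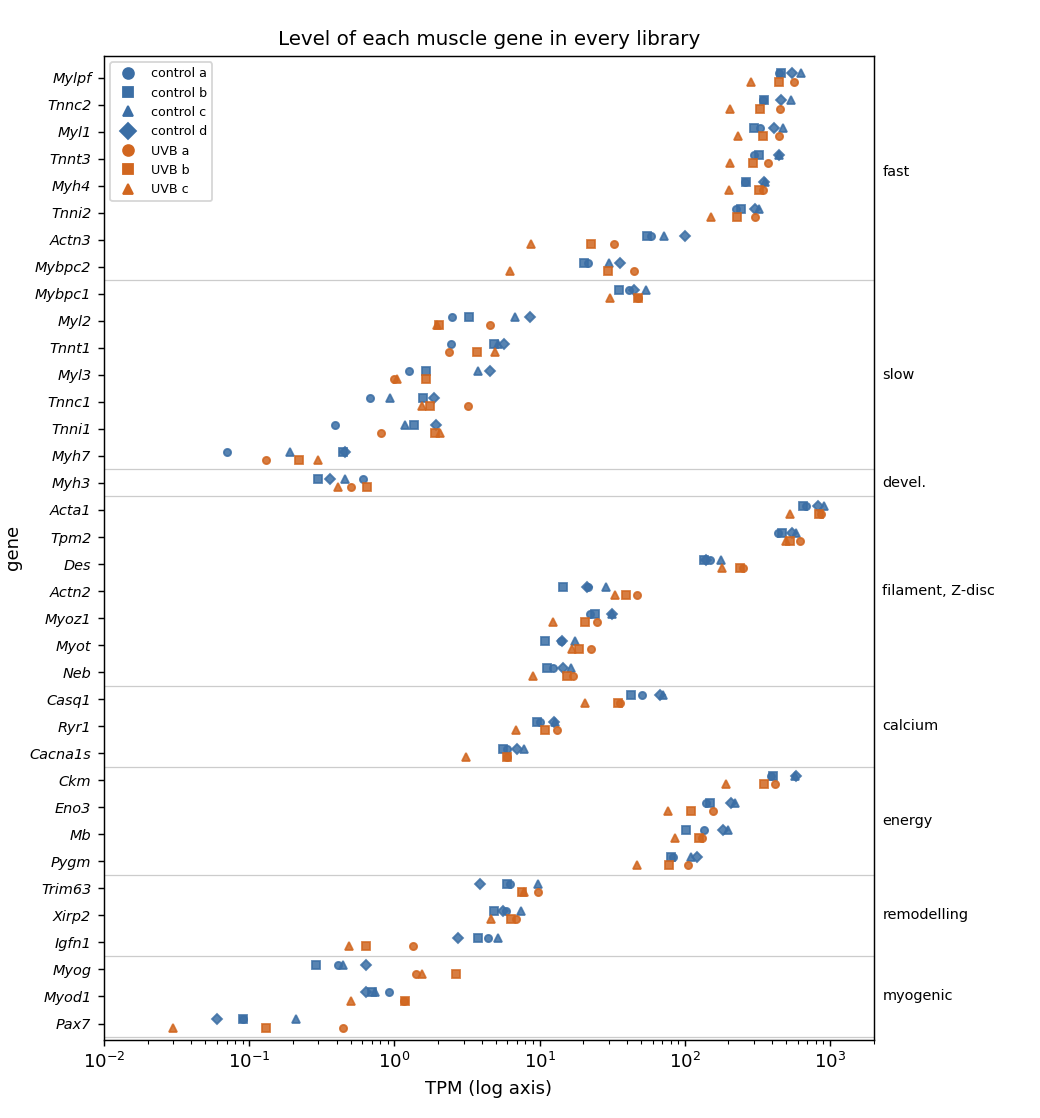
Level of each of the 36 muscle genes with values in each of the 7 libraries, in TPM on a log axis, ordered by role, with 1 point per library coloured by group. Acta1, at 768 TPM on average in controls, is the most abundant and Pax7 and Myh7 are among the lowest, and the control and UVB points of most genes interleave.

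Among genes with values, the fast isoforms of myosin heavy chain, light chain and troponin were far above the slow ones. Myosin-binding protein C was the other way, with slow Mybpc1 above fast Mybpc2 per length in every library. Myh4, the fast heavy chain of type IIb fibres, was at 986, 991, 1301 and 1322 CPM in control a to d and at 1254, 1227 and 754 CPM in UVB a to c (CPM, counts normalised for library size with TMM factors). UVB a and b lay inside the control range and UVB c below it, and the log2 fold change was -0.09 (SE 0.19, adjusted p = 0.792). The counts of Myh4 were not whole in any library, so reads were shared out with other genes by the authors' counting, and how they were divided with the similar genes Myh1, Myh2 and Myh8 is not known. On the TPM scale Myh4 was at 309 ± 53.1 in controls (SD, n = 4) and 291 ± 76.8 after UVB (SD, n = 3).

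Mylpf, the regulatory light chain of fast fibres, was the most abundant of the fast genes at 521 ± 87.5 TPM in controls (SD, n = 4) and 433 ± 140 TPM after UVB (SD, n = 3). Its 4 control libraries were at 149, 150.4, 204 and 182 CPM and its UVB libraries at 182, 151 and 93.1 CPM, which overlapped (log2 fold change -0.27, SE 0.22, adjusted p = 0.461). All 8 fast genes with values had a log2 fold change below 0, with a median of -0.27, and 1 was called. Without UVB c, Myh4 (0.11), Myl1 (0.01) and Mybpc2 lay above 0. The 6 others were the essential light chain Myl1 (-0.20), the fast troponins Tnnt3 (-0.38), Tnni2 (-0.27) and Tnnc2 (-0.40), the myosin-binding protein Mybpc2 (-0.01) and the called gene Actn3. Mybpc2 showed how far a single library weighed, with 97.8 and 66.7 CPM in UVB a and b and 13.9 CPM in UVB c. Its log2 fold change was 0.46 without UVB c and -0.01 with it (SE 0.56, adjusted p = 0.992). In GRCr8, Tnni2 overlaps other genes, Ctsd among them, and the handling of strand is not given in the sources used here.

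Actn3, the alpha-actinin of fast fibres that cross-links actin at the Z-disc, was the fast gene that fell. It was at 103, 95.1, 122 and 175 CPM in control a to d and at 54.7, 39.6 and 14.9 CPM in UVB a to c. Every UVB library was below every control, and UVB c was the lowest. Control and UVB means were 123 ± 35.9 CPM (SD, n = 4) and 36.4 ± 20.1 CPM (SD, n = 3). On the log2 scale Actn3 changed by -1.77, with SE 0.43 and an adjusted p of 0.0361 in edgeR. The call was lost in 6 of 19 alternative analyses, those without the low-count filter, without any 1 of the controls or without UVB b, with adjusted p of 0.0569 to 0.0912.

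Slow isoforms were low, apart from Mybpc1, and none of the 7 was called. Mybpc1, the slow myosin-binding protein C, which is also made in fast fibres, was at 96.9, 83.2, 123 and 106 CPM in the controls and at 109, 113 and 71.2 CPM after UVB. The groups overlapped (log2 fold change -0.07, SE 0.18, adjusted p = 0.841). Myh7, the slow and cardiac heavy chain, was at 0.280, 1.63, 0.690 and 1.71 CPM in control a to d and at 0.474, 0.813 and 1.08 CPM in UVB a to c. The Myh7 values overlapped and were lowest in control a and highest in control d (log2 fold change -0.42, SE 0.56, adjusted p = 0.659). Between 5.83 and 39.7 counts per library lay behind them, not whole in 6 libraries. The slow light chains Myl2 (-0.94, SE 0.48, adjusted p = 0.221) and Myl3 (-1.21, SE 0.48, adjusted p = 0.129) and the troponins Tnnt1 (-0.30), Tnni1 (0.44) and Tnnc1 (0.78) also overlapped between groups.

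The developmental heavy chain Myh3, made in embryonic and regenerating fibres, had low values in every library. Its counts were not whole in any library, so reads were shared out with other genes. How they were divided with similar genes, such as the far more abundant Myh4, is not known. Myh3 was at 2.29, 1.12, 1.66 and 1.37 CPM in control a to d and at 1.80, 2.44 and 1.503 CPM in UVB a to c, which overlapped (log2 fold change 0.25, SE 0.29, adjusted p = 0.607). Of the summed TPM of Myh3, Myh4 and Myh7, the heavy chains with values, Myh4 made up 99.76% ± 0.042 in the 4 controls and 99.73% ± 0.083 in the 3 UVB libraries (SD). Myh3 made up 0.144% ± 0.060 in controls and 0.182% ± 0.032 after UVB, and Myh7 0.0939% ± 0.065 and 0.0842% ± 0.057. These shares leave out Myh1, Myh2 and Myh8 and rest largely on counts that were not whole. Each difference between groups was smaller than the SD among controls.

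A ratio of a fast to a slow isoform within a library takes out a level of muscle RNA that both genes share. Of 12 pairs planned, 8 had values for both genes, and each was given as a log2 ratio of TPM + 0.1. The 4 control and 3 UVB libraries were compared by an exact two-sided permutation test over 35 splits, which cannot give a p below 0.0286. With 8 pairs, a single pair at that smallest p has an adjusted value of 0.229 (Benjamini-Hochberg), so the adjusted threshold was out of reach for any pair alone, and that none passed says little. The groups did not overlap for 2 pairs, Actn3 to Actn2 and Tnnc2 to Tnnc1.

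The log2 ratio of Actn3 to Actn2 was 1.46, 1.91, 1.33 and 2.25 in control a to d and -0.52, -0.80 and -1.90 in UVB a to c. Actn3 was thus the more abundant alpha-actinin per length in all 4 controls and Actn2 in all 3 UVB libraries. The difference of means was -2.81, with an exact permutation p of 0.0286, the smallest this design allows, and 0.229 after adjustment. The genes were paired as the fast-fibre alpha-actinin and the alpha-actinin of all striated fibres, and both are themselves called genes, so this ratio adds no independent result. The log2 ratio of fast to slow troponin C, Tnnc2 to Tnnc1, was 8.80, 7.71, 9.04 and 7.88 in the controls and 7.09, 7.47 and 6.95 after UVB (difference -1.19, exact permutation p = 0.0571, adjusted 0.229). Neither gene of that pair was called. Tnnc1 had few counts, 7, 17, 14 and 22 in control a to d and 33, 24 and 21 in UVB a to c.

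The other 6 ratios overlapped between groups. Myh4 to Myh7 averaged 9.77 ± 0.78 in the 4 controls and 9.84 ± 0.79 in the 3 UVB libraries (log2 scale, SD). Myh3 to Myh4 was -9.20 ± 0.46 and -8.85 ± 0.28, from counts that were not whole for either gene. Fast troponin I over slow, Tnni2 to Tnni1, was 7.86 ± 0.74 and 7.12 ± 1.16. Fast over slow troponin T, Tnnt3 to Tnnt1, was 6.40 ± 0.36 in controls and 6.29 ± 0.95 after UVB. Mylpf to Myl2 was 6.76 ± 0.63 and 7.25 ± 0.42, so its mean moved toward the fast gene. Mybpc2 to Mybpc1 was -0.72 ± 0.27 and -1.01 ± 1.13, below 0 in every library. For these 6 pairs the exact permutation p ran from 0.286 to 0.943, with adjusted values of 0.549 to 0.943. These comparisons neither show nor exclude a general shift between fast and slow isoforms.

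**Figure D2:**
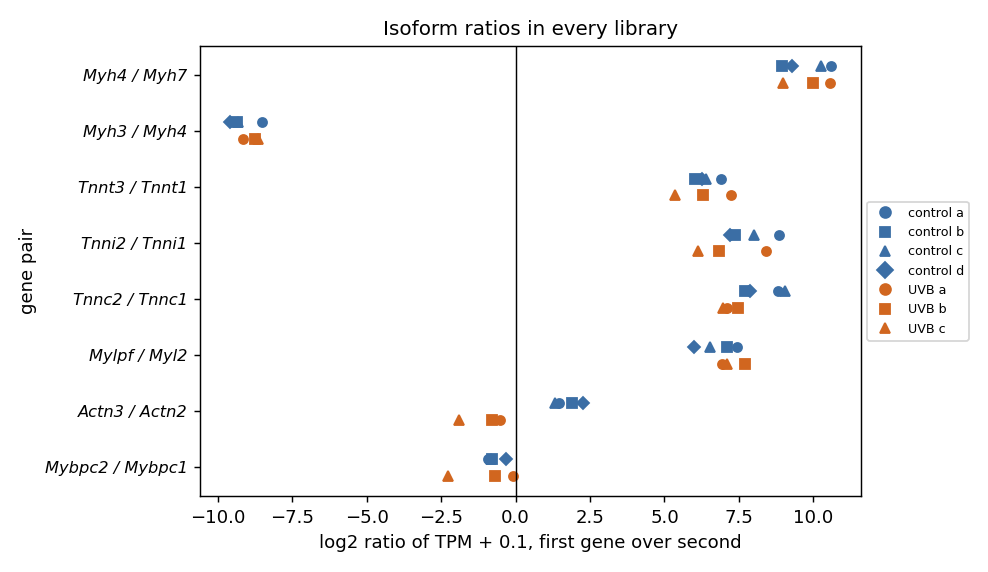
Log2 ratio of TPM + 0.1 of the first over the second gene for the 8 isoform pairs, with 1 point per library coloured by group. The control points of Actn3 over Actn2 lie between 1.33 and 2.25 and the UVB points between -1.90 and -0.52, while 6 of the 8 pairs overlap.

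Among thin filament and Z-disc genes, Actn2 and Des rose and the other 5 with values were not called. Actn2, the alpha-actinin of all striated fibre types, was at 38.8, 25.8, 50.4 and 38.0 CPM in control a to d and at 82.05, 72.0 and 58.9 CPM in UVB a to c. All UVB libraries exceeded all controls, with UVB c nearest to them, and the means were 38.3 ± 10.04 CPM for controls (SD, n = 4) and 71.0 ± 11.6 CPM for UVB (SD, n = 3). On the log2 scale Actn2 changed by 0.89, with SE 0.21 and an adjusted p of 0.0320 in edgeR. The call was lost in 5 of 19 alternatives, those without the low-count filter, control a, control d, UVB a or UVB b, with adjusted p of 0.0520 to 0.0896.

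Des, the intermediate filament protein that ties Z-discs together, was at 192, 172, 221 and 179 CPM in the controls and at 316, 307 and 229 CPM after UVB. UVB c, at 229 CPM, was just above control c, at 221 CPM. Des changed by 0.57 on the log2 scale, with SE 0.13 and an edgeR adjusted p of 0.0218, and leaving out control b or d, or UVB a or b, raised the adjusted p to between 0.0528 and 0.0721. Des and Tpm2 are also made by smooth muscle. Of 10 smooth muscle markers tested, 2 were called, or 20%, beside 13.0% of all genes. Tagln was higher (log2 fold change 0.39, edgeR adjusted p = 0.0279) and Mylk was lower (-0.38, adjusted p = 0.0145). Acta2 (-0.16) and Myh11 (-0.31) were not called. Log2 fold changes of 7 of the 10 lay below 0, with a median of -0.08. The summed smooth muscle level was 878 to 1129 TPM in controls and 1024 to 1059 TPM after UVB, and its part in the result for Des was not tested.

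Acta1, the skeletal alpha-actin, was the most abundant of all the muscle genes per length, at 768 ± 121 TPM in controls (SD, n = 4) and 745 ± 187 TPM after UVB (SD, n = 3). Its CPM was 569, 529.7, 728 and 676 in control a to d and 689.6, 697 and 429.9 in UVB a to c. UVB a and b lay within the control range and UVB c below it (log2 fold change -0.05, SE 0.18, adjusted p = 0.892). Tropomyosin Tpm2 (0.10), the filament-length protein Neb (0.02) and the Z-disc proteins Myoz1 (-0.53, SE 0.23, adjusted p = 0.176) and Myot (0.44, SE 0.15, adjusted p = 0.0843) also overlapped between groups. DESeq2 called Myot (adjusted p = 0.0423).

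Of the calcium-handling genes, Casq1 fell and the 2 channels did not pass. Casq1, the calsequestrin that stores calcium in the sarcoplasmic reticulum of fast fibres, was at 55.2, 45.9, 73.8 and 72.1 CPM in control a to d and at 37.3, 37.5 and 21.8 CPM in UVB a to c. UVB a and b were alike and UVB c lower, and all 3 were under the lowest control. Means were 61.7 ± 13.5 CPM for controls (SD, n = 4) and 32.2 ± 9.02 CPM for UVB (SD, n = 3). The change was -0.94 on the log2 scale, with SE 0.24 and an adjusted p of 0.0404 in edgeR. This was the least stable of the 6 calls, with 9 of 19 alternatives not calling it. It was lost without the low-count filter, on log2(TPM + 1) with or without a filter, and without any 1 library other than control b, with adjusted p of 0.0510 to 0.101. The release channel Ryr1 (-0.14, adjusted p = 0.711) and the voltage sensor Cacna1s (-0.41, adjusted p = 0.270) overlapped between groups.

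All 4 energy genes had log2 fold changes below 0 and none was called. Ckm, the muscle creatine kinase that buffers ATP, was at 320.4, 331, 459 and 473 CPM in control a to d and at 329.6, 287 and 155 CPM in UVB a to c. UVB a fell inside the control range and UVB b and c below it (log2 fold change -0.62, SE 0.27, adjusted p = 0.174). Its counts were not whole in any library. The glycolytic enzyme Eno3 gave -0.63 (SE 0.25, adjusted p = 0.143) and was called by DESeq2 alone (adjusted p = 0.0283). The oxygen-binding protein Mb gave -0.44 and the glycogen phosphorylase Pygm -0.37. The 4 genes summed to 739 to 1111 TPM in controls and 402 to 810.3 TPM after UVB.

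Igfn1 fell the most of all the muscle genes. It encodes a muscle protein with immunoglobulin and fibronectin domains that is found at the Z-disc. It was at 21.0, 17.5, 23.6 and 13.2 CPM in control a to d and at 5.40, 3.06 and 2.50 CPM in UVB a to c. The lowest control was above the highest UVB library, and the means were 18.8 ± 4.52 CPM for controls (SD, n = 4) and 3.66 ± 1.54 CPM for UVB (SD, n = 3). Igfn1 changed by -2.38 on the log2 scale, with SE 0.30 and an edgeR adjusted p of 0.00409, and the gene was called in all 19 alternatives, with adjusted p of at most 0.0165. On log2(TPM + 1), which understates changes of low genes, the value was -1.46.

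Neither of the other remodelling genes was called. Trim63, the ubiquitin ligase MuRF1 that marks sarcomere proteins for breakdown in wasting muscle, was at 6.21, 5.32, 8.45 and 3.97 CPM in the controls and at 8.34, 7.32 and 6.93 CPM after UVB. All 3 UVB values lay between the second highest and the highest control (log2 fold change 0.32, SE 0.23, adjusted p = 0.378). Xirp2, an actin-binding protein of the intercalated and myotendinous zones, gave 0.01 (SE 0.16, adjusted p = 0.986).

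Myog, the myogenic transcription factor that drives differentiation of myoblasts, rose from a low level. It had 7, 5, 10 and 12 counts in control a to d and 23, 55 and 32 counts in UVB a to c, or 0.327, 0.233, 0.345 and 0.513 CPM and 1.09, 2.13 and 1.23 CPM. Each UVB library was above each control, and UVB b was the highest. Myog changed by 2.05 on the log2 scale, with SE 0.37 and an edgeR adjusted p of 0.00962, and the gene was called in each of the 18 alternatives that tested it, with adjusted p of at most 0.0325. On log2(TPM + 1) the change was 0.97. Myod1, which marks committed muscle precursors, had 20, 15, 21 and 15 counts in the controls and 24, 31 and 13 after UVB, which overlapped (log2 fold change 0.33, SE 0.35, adjusted p = 0.572). Pax7, the marker of resting satellite cells, had 3, 3, 9 and 2 counts in the controls and 14, 5 and 1 after UVB, too few to test.

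**Figure D3:**
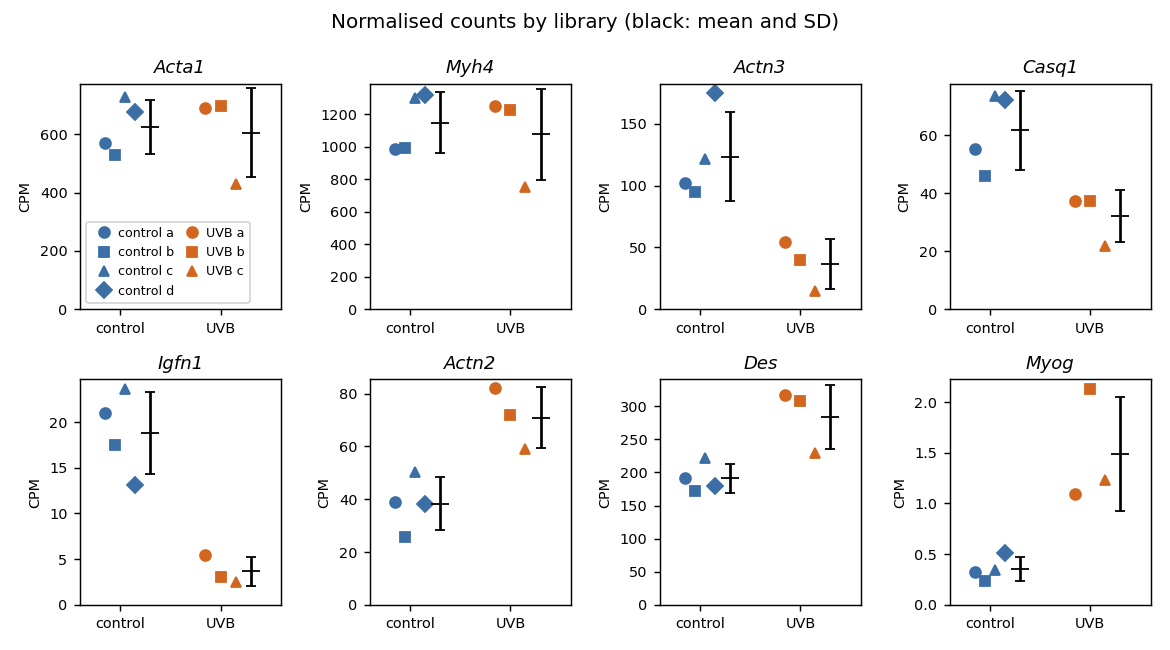
TMM-normalised CPM of the 6 called genes, and of Acta1 and Myh4 beside them, in every library, with 1 panel per gene on an axis from 0, points for the 4 control and 3 UVB libraries, and the mean and SD in black. The groups overlap for Acta1 and Myh4 and not for the called genes, and the gap is narrowest for Des, where UVB c (229) lies just above control c (221).

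**Figure D4:**
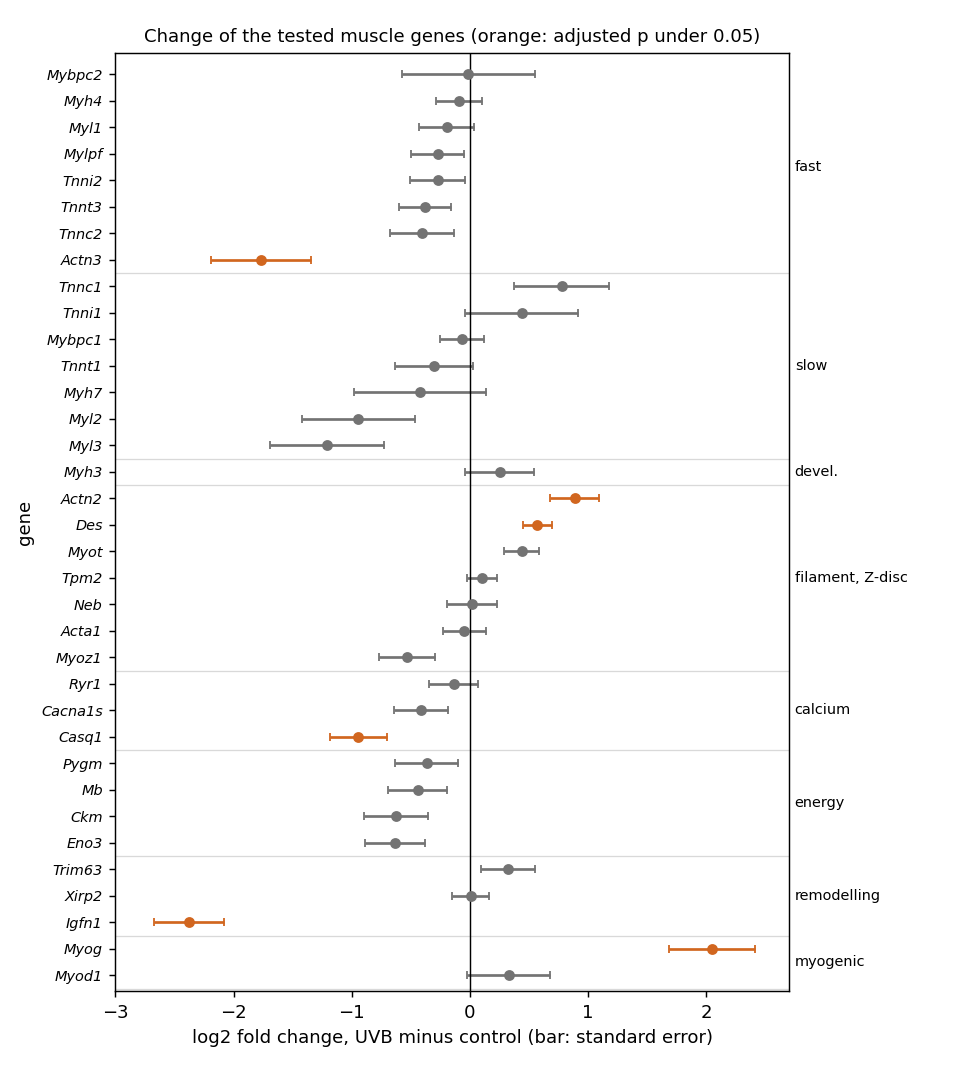
Log2 fold change (UVB minus control) with its standard error for the 35 tested muscle genes, grouped by role, with the 6 called genes in orange. All 8 fast genes and all 4 energy genes lie below 0, and the values run from -2.38 for Igfn1 to 2.05 for Myog.

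Because the libraries differed in muscle RNA, each gene was also expressed relative to Acta1 in its own library, a comparison chosen after the data were seen and given with no test. Some sarcomere genes kept a nearly fixed ratio to Acta1, and others did not. The difference in log2 ratio (UVB minus control) was -0.05 for Myh4, 0.05 for Neb and -0.01 for Mybpc1, with SDs among controls of 0.076, 0.025 and 0.065. The low level of Myh4, Neb and Mybpc1 in UVB c was thus matched by Acta1 in the same library. The fast genes Mylpf (-0.24, SD among controls 0.054), Tnnt3 (-0.33, SD 0.119), Tnni2 (-0.24, SD 0.084) and Tnnc2 (-0.38, SD 0.105) were lower relative to Acta1. For each of them UVB b and c lay below every control and UVB a did not. For Tpm2 the difference was 0.17, with an SD of 0.074 among controls and 0.24 after UVB, and the groups overlapped. UVB a and c lay above every control, and UVB b (-0.68) lay inside the control range of -0.70 to -0.53.

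Relative to Acta1, the groups did not overlap for 11 of 34 genes, beside 6.65% of all genes, a share that falls as the spread of Acta1 is added to every gene. The 6 called genes were among the 11, with differences of 2.13 for Myog, 0.99 for Actn2, 0.63 for Des, -0.89 for Casq1, -1.84 for Actn3 and -2.34 for Igfn1. The Casq1 ratios were -3.37, -3.53, -3.30 and -3.23 in control a to d and -4.21, -4.22 and -4.30 in UVB a to c, so UVB c no longer stood apart. The 5 further genes were Myot (0.52), Ckm (-0.60), Eno3 (-0.59), Myoz1 (-0.50) and Cacna1s (-0.39), none of which was called on its own level. The other 23 overlapped.

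**Figure D5:**
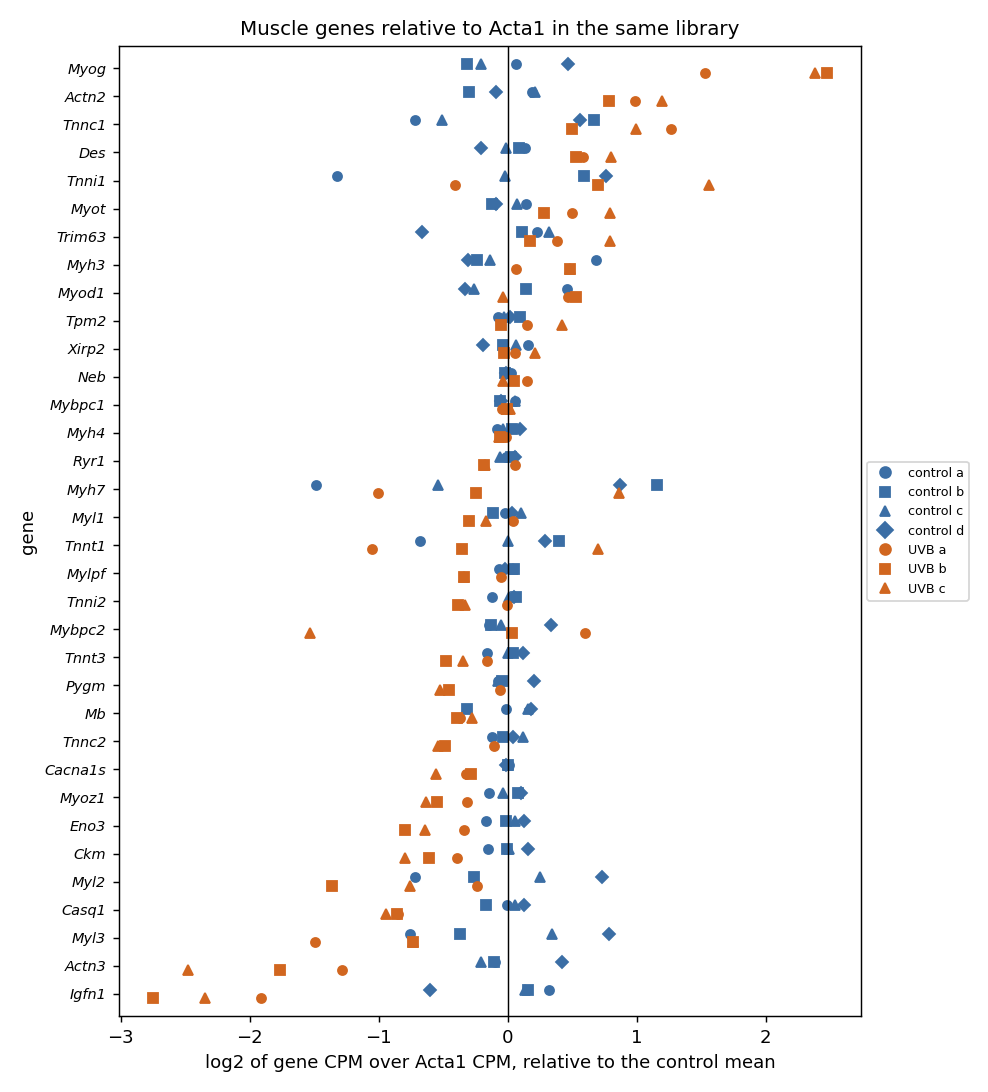
Log2 of the CPM of 34 muscle genes over that of Acta1 in the same library, relative to the control mean, ordered by the difference between groups, with 1 point per library coloured by group. Neb, Myh4 and Mybpc1 cluster around 0 in all 7 libraries, whereas Myog, Actn2 and Des lie above the controls and Igfn1, Actn3, Casq1 and Ckm below them.

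Further striated muscle genes, from 6 lists of 91 symbols, gave 5 higher and 2 lower of 76 tested, or 9.21%, beside 13.0% of all genes. The sarcomere list held 4 of the 5 that rose, and none of its 27 tested genes was lower. Csrp3, the muscle LIM protein of the Z-disc, was at 8.73, 5.79, 11.6 and 7.01 CPM in control a to d and at 39.7, 36.5 and 21.9 CPM in UVB a to c. Every UVB library was well above the controls (log2 fold change 1.97, SE 0.27, edgeR adjusted p = 0.00614). Ankrd2, an ankyrin-repeat protein of the sarcomere that responds to stretch, was at 1.91, 0.607, 1.21 and 1.03 CPM in the controls and at 8.30, 4.99 and 3.54 CPM after UVB (log2 fold change 2.23, SE 0.38, adjusted p = 0.00924). Both were called in all 19 alternatives.

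Tnnt2, the cardiac and embryonic troponin T, was at 1.54, 1.40, 2.41 and 2.91 CPM in the controls and at 4.12, 3.60 and 4.89 CPM after UVB (log2 fold change 1.01, SE 0.27, edgeR adjusted p = 0.0356). Its call was lost when any library but control d was left out, and with log2(TPM + 1) and no filter, with adjusted p up to 0.104. Tpm3, a tropomyosin of slow fibres that other cell types make too, rose by 0.30 on the log2 scale (SE 0.06, adjusted p = 0.0182), with an adjusted p of 0.0519 without UVB a and 0.0584 without control c. The cardiac genes Myl7 and Tnni3 had 0 counts in every library, apart from 1 count of Tnni3 in control a.

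None of the 14 further calcium and excitation genes and none of the 11 further energy genes was called. Pvalb, the calcium buffer parvalbumin of fast fibres, was at 51.1, 47.7, 65.6 and 74.9 CPM in control a to d and at 25.4, 28.9 and 7.47 CPM in UVB a to c. Its groups did not overlap, but its adjusted p was 0.0522 (log2 fold change -1.54, SE 0.42). It was called in 5 of 19 alternatives, by DESeq2 (adjusted p = 0.0157), limma-voom (0.0257), with a mean count of at least 50 (0.0480), without robust estimation (0.0298) and without UVB c (0.0164). Atp2a2, the calcium pump of slow fibres and of many other cells, gave 0.07 (adjusted p = 0.545). The most abundant further energy genes, Gpd1 (0.24) and the muscle cytochrome oxidase subunit Cox6a2 (0.23), overlapped.

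At the neuromuscular junction, Chrna1 was the 1 gene called of 8 tested, or 12.5%, beside 13.0% of all genes. It encodes the alpha subunit of the muscle acetylcholine receptor and was at 0.607, 0.327, 0.897 and 0.726 CPM in the controls and at 2.04, 1.74 and 1.43 CPM after UVB. All UVB libraries were higher (log2 fold change 1.40, SE 0.32, edgeR adjusted p = 0.0240), and the call was lost without control d, UVB a or UVB b, with adjusted p up to 0.0666. On log2(TPM + 1) the change of Chrna1 was 0.72. None of the 6 tested satellite and regeneration genes was called. Myf6, a myogenic factor of mature fibres, did not overlap between groups and had an edgeR adjusted p of 0.0556 (log2 fold change 0.76, SE 0.23). Myf6 was called by DESeq2 (adjusted p = 0.0454), with a filter on log2(TPM + 0.1) (0.0399) and log2(TPM + 1) (0.0395), and without UVB c (0.0409). The other alternatives that tested it did not call it. Mef2c gave 0.05.

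Of 10 genes of atrophy and denervation, Foxo3 and Ncam1 were called lower, beside 6.74% of all genes, and none was called higher. Every UVB library was below every control for 3 of the 10, beside 13.8% of all genes. The reverse held for 1 of the 10, beside 12.8%. Foxo3, a transcription factor of atrophy that most tissues express, fell by 0.27 on the log2 scale (SE 0.05, edgeR adjusted p = 0.0126). Ncam1, an adhesion molecule of denervated fibres and of Schwann cells, fell by 0.69 (SE 0.17, adjusted p = 0.0277), a call lost without control c, control d, UVB b or UVB c and on each log2 TPM scale, with adjusted p of 0.0579 to 0.0823. On log2(TPM + 1) Ncam1 changed by -0.45. Kcna2, an axonal potassium channel listed among the nerve markers, was also lower (-2.21, adjusted p = 0.00594). It was 1 of 6 Schwann cell and nerve markers reported, all below 0. Of these, 3 had every UVB library below every control, beside 13.8% of all genes tested. Summed, the nerve markers reported were at 69.7 to 78.0 TPM in controls and 51.6 to 55.3 TPM after UVB, and the part of nerve in the fall of Ncam1 was not tested.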

How the data were processed

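RNA of 4 control and 3 UVB meibomian gland samples was sequenced from 1 µg of total RNA with Illumina libraries, per the labels' protocols. The authors deposited a table of estimated counts (expected counts) per gene without normalisation, of which 12.5% were not whole, and a table of TPM values, which summed to 82.0% to 84.1% of their nominal scale over the genes used here. Trimmomatic, FastQC, Picard and DRAGEN and the build rn7 are named in the submitters' processing notes. The counting program, annotation and strand setting are not given in the sources used here. Unquoted commas in gene names shifted cells, so the last 7 cells of each row were taken as its values, and 5 rows per table were left out.

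Rounded counts went into edgeR 4.0.16 under R 4.3.3, with filterByExpr, TMM factors and the robust quasi-likelihood fit, with p-values two-sided and Benjamini-Hochberg adjusted over 13709 genes. The SE is the absolute log2 fold change over the square root of F. The script was tested on simulated counts. Depth per sample limits genes with few counts, such as Myog, Myh7 and Pax7. The fit was repeated with limma-voom (limma 3.58.1), DESeq2 1.42.0, other scalings and filters, log2 TPM and leaving out each library.

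Members, roles and lists were chosen with earlier results of these data known. Of 190 listed symbols, 15 were not analysed here, and a listed gene is not reported here. Values in every library are given for genes past the threshold, the most abundant of each role, and fixed heavy chain, remodelling and myogenic genes. In each further striated list, genes past the threshold are named, or else the 2 most abundant. Other genes are named as examples. Promoter windows and overlapping genes came from RefSeq tables of GRCr8, which is not the authors' build.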

Additional observations from a re-analysis of the deposited data

How the results depend on the processing

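No paired analysis was possible because no label ties the numbers in the column names to a sample. Leaving out 1 library in turn gave 851 to 1898 genes called (421 to 927 higher, 430 to 971 lower), against 1787, 863 and 924, with the fewest without control c. The same step gave 2 to 5 muscle genes called (1 to 3 higher, 1 to 2 lower), against 6, 3 and 3, and a median log2 fold change of -0.33 to 0.01. Igfn1 and Myog were called each time. Relative to Acta1, an alternative added after seeing the data, 11 muscle genes had groups that did not overlap, against 6. Without the low-count filter 3 muscle genes were called (1 lower), and log2(TPM + 1) without a filter gave 571 genes lower in all. DESeq2 called 8 muscle genes, adding Eno3 and Myot. Of 29 muscle genes tested and not called, 9 turned sign when 1 library was left out, with ranges of -0.18 to 0.12 (Mybpc1), -0.16 to 0.15 (Acta1), -0.22 to 0.11 (Myh4), -0.42 to 0.01 (Myl1), -0.57 to 0.46 (Mybpc2), -0.33 to 0.09 (Ryr1), -0.004 to 0.20 (Tpm2), -0.14 to 0.24 (Neb) and -0.09 to 0.15 (Xirp2). The first 6 turned without UVB c and the last 3 did not. Of the further striated genes named, Cox6a2 ranged from -0.078 to 0.45 and Mef2c from -0.061 to 0.17. On log2(TPM + 1), Igfn1, Myog, Chrna1 and Ncam1 moved by over 1.5 times. The difference in the Myh4 to Myh7 log2 ratio turned to -0.036 with TPM + 1. Leaving out 1 library moved that of Tnnt3 to Tnnt1 between -0.58 and 0.37, and that of Mybpc2 to Mybpc1 between -0.75 and 0.34. The cause of these changes was not tested. No called gene changed sign under the alternatives run.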
